A study of Homo sapiens with 4 samples.

Results

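A set of 8 transcription factors that set intestinal identity and direct cells towards the absorptive or secretory lineages were followed in HT-29 cells with and without TRIM40. They are the genes CDX1, CDX2, HNF4A, KLF5, GATA6, ELF3, ATOH1 and HES1, taken by gene symbol, 8 of the 27685 genes in the deposited transcript tables. HT-29 is a human colon cancer line with epithelial features, in which TRIM40, an E3 ubiquitin ligase, is normally silent. RNA was sequenced from HT-29 cells stably expressing either control vector (Mock) or N-terminally Myc-tagged TRIM40 (Myc-TRIM40), once each in 2 independent experiments, giving 4 libraries. The sample titles name no other treatment for any of the 4, and the paper describes its transduced cells as selected with puromycin. Each comparison was 1 Myc-TRIM40 library against the Mock library of its experiment. TRIM40 was expressed from an introduced vector, in a transformed line that carries its own tumour mutations, and no library held normal colon.

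The caudal-type homeobox factors CDX1 and CDX2 specify intestinal over gastric identity, and CDX2 is widely used as a marker of intestinal origin. HNF4A, a nuclear receptor, drives enterocyte genes, and the zinc finger factors KLF5 and GATA6 act in crypt cells and in epithelial maintenance. ELF3 is an epithelium-specific ETS factor linked to differentiation. In crypts, Notch signalling induces HES1, which represses ATOH1. Cells that escape this repression express ATOH1 and become goblet, Paneth or enteroendocrine cells, while the others become absorptive.

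For HNF4A, the share of transcripts from each of its alternative starts differed widely between libraries, and the sequences before these starts are therefore given. The gene has a pair of well-known promoters, P2 upstream and P1 downstream. Their transcripts differ in the first exon and hence in the N-terminal end of the protein, and P1 isoforms carry an activation domain that P2 isoforms lack. In the deposited tables (hg19) HNF4A spans chr20:42984441-43061485 on the plus strand. Its 10 RefSeq transcripts begin at 42984441 (P2, 6 transcripts) or at 43029896 (P1, 4 transcripts), 45455 bases apart. The 250 bases before each start are shown from RefSeq in build GRCh38.p14, plus strand, at chr20:44355449-44355698 for P2 and chr20:44400989-44401238 for P1. Builds were not converted. The windows were assigned by their order along the strand, and in GRCh38.p14 their starts lie 45540 bases apart, 85 bases more than in the files. Capitals mark matches, on either strand, to the motifs described next.
HNF4A P2: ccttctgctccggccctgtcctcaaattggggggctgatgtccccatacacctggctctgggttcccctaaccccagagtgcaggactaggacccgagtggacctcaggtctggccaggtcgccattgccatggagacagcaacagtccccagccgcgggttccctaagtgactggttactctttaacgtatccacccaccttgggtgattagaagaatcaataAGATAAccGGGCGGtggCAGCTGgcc
HNF4A P1: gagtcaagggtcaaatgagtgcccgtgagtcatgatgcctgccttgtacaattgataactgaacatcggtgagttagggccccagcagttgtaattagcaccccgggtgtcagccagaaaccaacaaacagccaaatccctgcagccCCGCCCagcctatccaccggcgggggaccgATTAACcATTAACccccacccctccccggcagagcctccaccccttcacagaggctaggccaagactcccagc

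The 7 motifs were searched on both strands, and the share of all 35116 RefSeq promoter windows of the same length holding each is given as the reference. The P2 window held 1 GATA motif (AGATAA, 9.17% of promoters), 1 GC box of KLF and SP factors (GGGCGG, 42.6%) and 1 E-box (CAGCTG, 14.0%), the kind of element that basic helix-loop-helix factors can bind. These lay 26, 18 and 9 bases upstream of the start and did not overlap. The P1 window held 2 adjacent copies of an HNF1 motif (ATTAAC, 6.23%), 73 and 66 bases upstream. It also held 1 GC box, 103 bases upstream on the other strand and printed as CCGCCC. Neither window held the letters of the CDX motif (TTTATG, 9.64%), of the HNF4 motif (CAAAGTC, 2.91%) or of a TATA box (TATAAA, 10.7%). GC content was 58.4% for P2 and 58.0% for P1, against a median of 58.0% over all windows. These matches describe letters in the windows and were not tested for binding.

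Libraries held between 60954602 and 67424698 estimated reads. TRIM40 had 0 reads in both Mock libraries, 272646 in the first Myc-TRIM40 library and 110665 in the second, as the labels state. The epithelial markers EPCAM, CDH1, KRT8, KRT18 and KRT19 were expressed in every library, and their summed level ran from 14174 to 16847 TPM (length-scaled level with the same sum in each library). Among the other marker genes, COL1A2, COL3A1, DCN, PDGFRA, CD3E and CDH5 had 0 reads throughout, PTPRC had at most 4, COL1A1 had 123 to 352, VWF 0 to 15, PECAM1 17 to 31 and CD68 751 to 1379. Their part in the results was not tested. Experiment 2 departed from experiment 1 for many genes. Its Mock library differed most in composition, as its 50 genes with the most reads held 14.6% of all reads. In the other libraries this share was 11.4% to 12.3%. The library normalization factor (TMM) was 0.945 for that Mock library and 1.00 to 1.03 for the others. The part of this library in the ratios of experiment 2 was not tested. The ratio of Myc-TRIM40 to Mock reached 1.5-fold on FPKM + 1 (fragments scaled by transcript length and library size, plus a pseudocount of 1) for 3.44% of the 14868 tested genes in experiment 1 and 11.4% in experiment 2.

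None of the 8 factors passed edgeR's quasi-likelihood test with the experiment as a block, at a Benjamini-Hochberg adjusted p under 0.05. Over all genes the same test called 6 higher (0.0404%) and 3 lower (0.0202%), or 0.0605% in either direction. Adjusted p-values of the 8 ran from 0.890 to 1.00, and 0 of 8 had an unadjusted p under 0.05, which 4.54% of all tested genes had. DESeq2 also called 0 of 8, against 0.303% of all genes higher and 0.0605% lower, or 0.363% in all. None reached 1.5-fold on FPKM + 1 in either experiment, where the shares of all genes were 3.44% and 11.4%. The pseudocount understates differences of low genes, and by normalized reads ATOH1 did pass 1.5-fold in both experiments, in opposite directions. On TPM + 1, HNF4A (log2 ratio 0.61) and ATOH1 (0.70) passed 1.5-fold in experiment 2, where the median of all tested genes was 0.27. With 2 libraries in each group the precision is low. An exact permutation test of 2 against 2 libraries, ignoring the experiment, could not give a p below 0.333. Bulk RNA cannot tell fewer expressing cells from less RNA per cell.

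Per unit of length, the factors covered a wide range of levels, in which KLF5 was highest and CDX1 lowest. In Mock, KLF5 stood at 250.7 ± 72.0 TPM (SD, n = 2), ELF3 at 109 ± 24.0 TPM, HES1 at 47.1 ± 15.6 TPM and HNF4A at 36.0 ± 19.4 TPM. GATA6 followed at 25.3 ± 4.84 TPM, ATOH1 at 4.67 ± 3.74 TPM, CDX2 at 2.53 ± 0.434 TPM and CDX1 at 0.684 ± 0.032 TPM. Over all 4 libraries, the lowest KLF5 level lay above the highest ELF3 level, and the same held for ELF3 over HES1, GATA6 over ATOH1, and CDX2 over CDX1. HES1 and HNF4A, HNF4A and GATA6, and ATOH1 and CDX2 overlapped, and their order is not set by these libraries. Both caudal factors were thus at the low end in this line, with CDX2 never above 3.10 TPM.

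**Figure D1:**
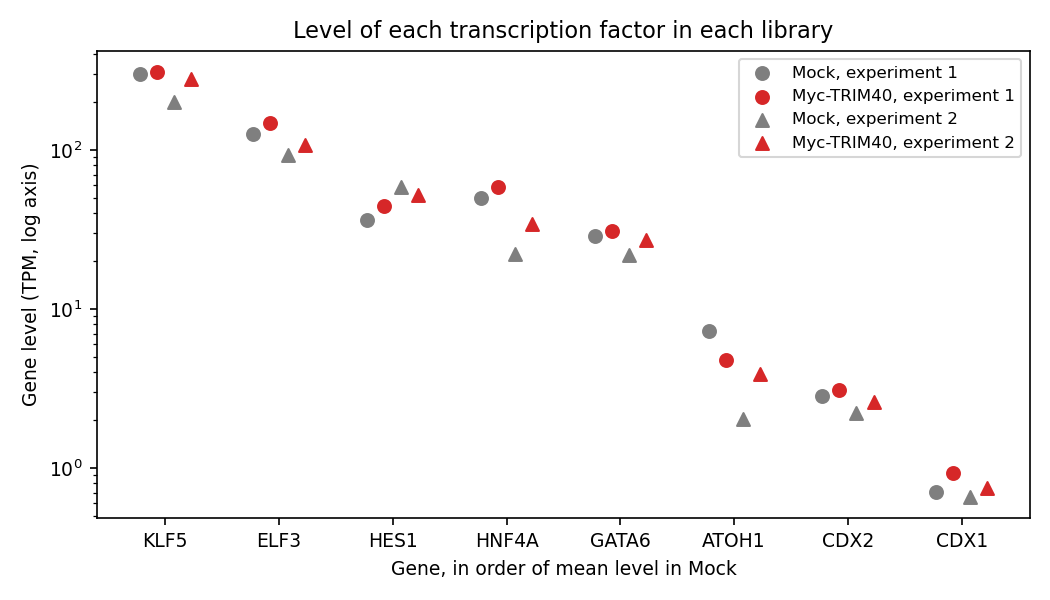
Level of each factor in TPM (log axis) in the 4 libraries, with grey for Mock, red for Myc-TRIM40, circles for experiment 1 and triangles for experiment 2. KLF5 lies above all other factors in every library and CDX1, at no more than 0.925 TPM, below them, while the ranges of HES1 and HNF4A, of HNF4A and GATA6, and of ATOH1 and CDX2 overlap.

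Among the factors of intestinal identity, CDX1 (chr5:149546344-149564121) had 36 reads in Mock and 46 in Myc-TRIM40 in experiment 1, and 45 and 41 in experiment 2. CDX2 (chr13:28536205-28543505) had 191 and 205 reads in experiment 1 and 200 and 184 in experiment 2. Groups overlapped for both genes by reads. In TPM, CDX1 was higher in both Myc-TRIM40 libraries (0.925 and 0.750) than in both Mock libraries (0.707 and 0.662). The edgeR log2 difference was 0.08 (SE 0.48, 95% interval −1.02 to 1.18) for CDX1 and −0.03 (SE 0.28, −0.67 to 0.60) for CDX2. At these depths the interval ran from 0.494-fold to 2.27-fold for CDX1 and from 0.628-fold to 1.52-fold for CDX2.

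KLF5, which promotes crypt proliferation, and GATA6, which maintains endoderm and crypt programmes, were nearly level across libraries by normalized reads. In TPM, KLF5 ran from 200 to 309 and GATA6 from 21.9 to 30.9. KLF5 (chr13:73629114-73651680) had 30568 reads in Mock and 30684 in Myc-TRIM40 in experiment 1, and 27072 and 29343 in experiment 2. GATA6 (chr18:19749398-19782491) had 3103 and 3273 reads in experiment 1 and 3165 and 3105 in experiment 2. The groups overlapped for both genes after scaling to library size. Log2 differences were 0.04 (SE 0.20, −0.41 to 0.48) for KLF5 and −0.00 (SE 0.21, −0.48 to 0.47) for GATA6.

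ELF3 (chr1:201979690-201986315) had 11344 reads in Mock and 12997 in Myc-TRIM40 in experiment 1, and 11111 and 10184 in experiment 2, and the groups overlapped. The experiments differed in sign, by a log2 ratio of normalized reads of 0.16 in the first and −0.14 in the second. The joint difference was 0.01 (SE 0.22, −0.49 to 0.51). Nearly all ELF3 reads came from 1 of its 2 transcripts, which share a start, and the other held 1.41% to 2.46%.

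HES1 and ATOH1, the repressor and its target in the choice of lineage, differed from Mock in opposite directions to each other within each experiment, and each reversed between the experiments. HES1 (chr3:193853931-193856401) had 1508 reads in Mock and 1820 in Myc-TRIM40 in experiment 1, then 3253 and 2283 in experiment 2. Its log2 ratio of normalized reads was 0.23 (95% counting interval 0.13 to 0.33) in experiment 1 and −0.52 (−0.60 to −0.45) in experiment 2. ATOH1 (chr4:94750078-94751142) had 223 reads in Mock and 143 in Myc-TRIM40 in experiment 1, then 83 and 126 in experiment 2. Its log2 ratio was −0.68 (−0.99 to −0.37) in experiment 1 and 0.59 (0.18 to 1.01) in experiment 2. Such intervals cover counting error only. Across experiments the log2 differences were −0.15 (SE 0.25, −0.72 to 0.42) for HES1 and −0.06 (SE 0.38, −0.94 to 0.81) for ATOH1.

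For both genes the distance between the Mock libraries exceeded that between conditions. From experiment 1 to 2, the log2 CPM (reads scaled to library size) of Mock fell by 1.47 for ATOH1 and rose by 1.05 for HES1, and both Myc-TRIM40 libraries lay between the Mock libraries. Over the 4 libraries the centred log2 CPM profiles of ATOH1 and HES1 were the least alike of all 28 pairs of factors, with a root mean square difference of 0.91. CDX2 and GATA6 were the most alike, at 0.035. The 4 libraries are the only points behind these distances.

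**Figure D2:**
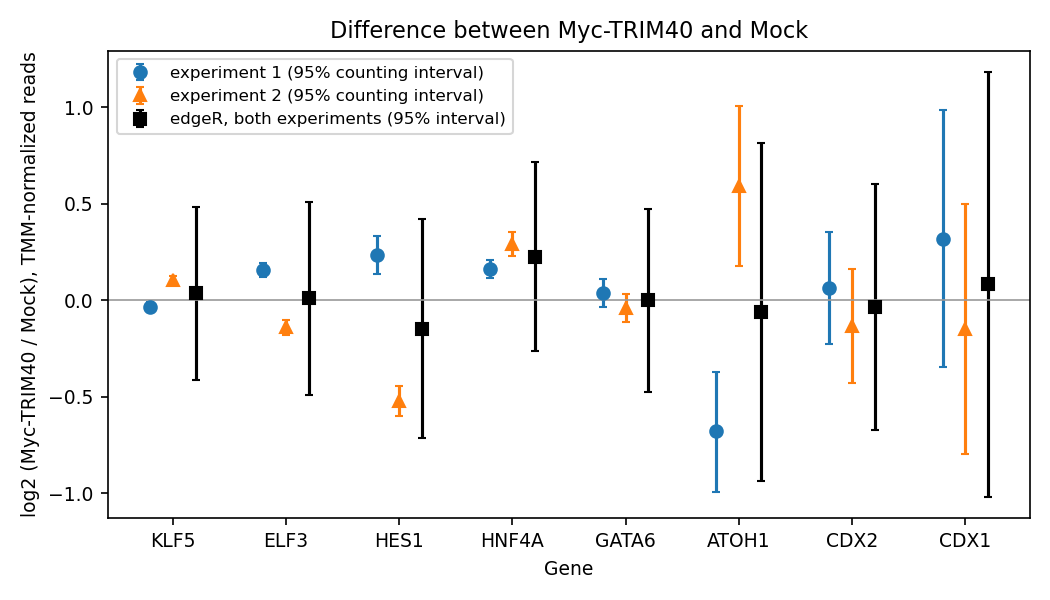
Log2 ratio of TMM-normalized reads, Myc-TRIM40 over Mock, for each factor in experiment 1 (circles) and experiment 2 (triangles) with 95% counting intervals, and the joint edgeR estimate (squares) with its 95% interval. Every joint interval includes 0, and ATOH1 and HES1 lie on opposite sides of 0 in the 2 experiments.

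Counting intervals excluded 0 in opposite directions in the 2 experiments for KLF5, ELF3, ATOH1 and HES1, which is 4 of 8 against 18.6% of all tested genes. They excluded 0 in the same direction for HNF4A, 1 of 8 against 25.2%, and did neither for CDX1, CDX2 and GATA6. These intervals narrow with read number, and the shares over all genes were not matched for level. KLF5, with the most reads of the factors, was counted at log2 ratios of normalized reads of only −0.03 and 0.10. Direction depended on scaling. Ratios of normalized reads had opposite signs in the 2 experiments for 7 of the 8 factors, against 45% of all tested genes. Ratios of FPKM + 1 did so for 5 (43.7% of all genes) and ratios of TPM + 1 for 2 (39.4%). The median of all tested genes was 0.03 and 0.08 on FPKM + 1 in experiments 1 and 2, and 0.06 and 0.27 on TPM + 1. The HES1 and ATOH1 reversals remained on all 3 scales.

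HNF4A as a whole had 6316 reads in Mock and 7257 in Myc-TRIM40 in experiment 1, and 3820 and 4709 in experiment 2. Its level in Myc-TRIM40 was above that of Mock in each experiment, by a log2 ratio of normalized reads of 0.16 (0.11 to 0.21) and 0.29 (0.23 to 0.35), but the groups overlapped. The difference did not pass the test (log2 0.23, SE 0.21, −0.26 to 0.71, adjusted p = 0.890 by edgeR), and the Mock libraries were further apart, by −0.79 in log2 CPM from experiment 1 to 2.

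Beneath this total, the start in use differed from library to library. Transcripts beginning at P2 had 888 reads in Mock and 5873 in Myc-TRIM40 in experiment 1, then 2898 and 1013 in experiment 2. Those beginning at P1 had 5428 and 1384 reads in experiment 1, then 922 and 3696 in experiment 2. P2 transcripts were therefore 6.44-fold higher with TRIM40 by normalized reads in experiment 1 and 2.89-fold lower in experiment 2. P1 transcripts were 4.03-fold lower and 3.97-fold higher.

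The P2 share of HNF4A reads was 14.1% (exact 95% binomial interval 13.2 to 14.9, counting error only) in Mock and 80.9% (80.0 to 81.8) in Myc-TRIM40 in experiment 1. In experiment 2 it was 75.9% (74.5 to 77.2) in Mock and 21.5% (20.3 to 22.7) in Myc-TRIM40. The intervals treat every estimated HNF4A read as an observed read of its start. Reads of exons shared by both classes were divided by the authors' software. The intervals do not cover that division and can be too narrow. The P2 share in Myc-TRIM40 was 66.9 points above Mock in experiment 1, and in experiment 2 it dropped by 54.4 points, while the Mock libraries differed by 61.8 points. Each condition had 1 library of mainly P2 and 1 of mainly P1 transcripts. Testing the classes as separate features, a step chosen after the values were seen, gave log2 differences of 0.58 (SE 0.93, adjusted p = 0.930 by edgeR) for P2 and −0.02 (SE 0.87, adjusted p = 0.998) for P1.

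**Figure D3:**
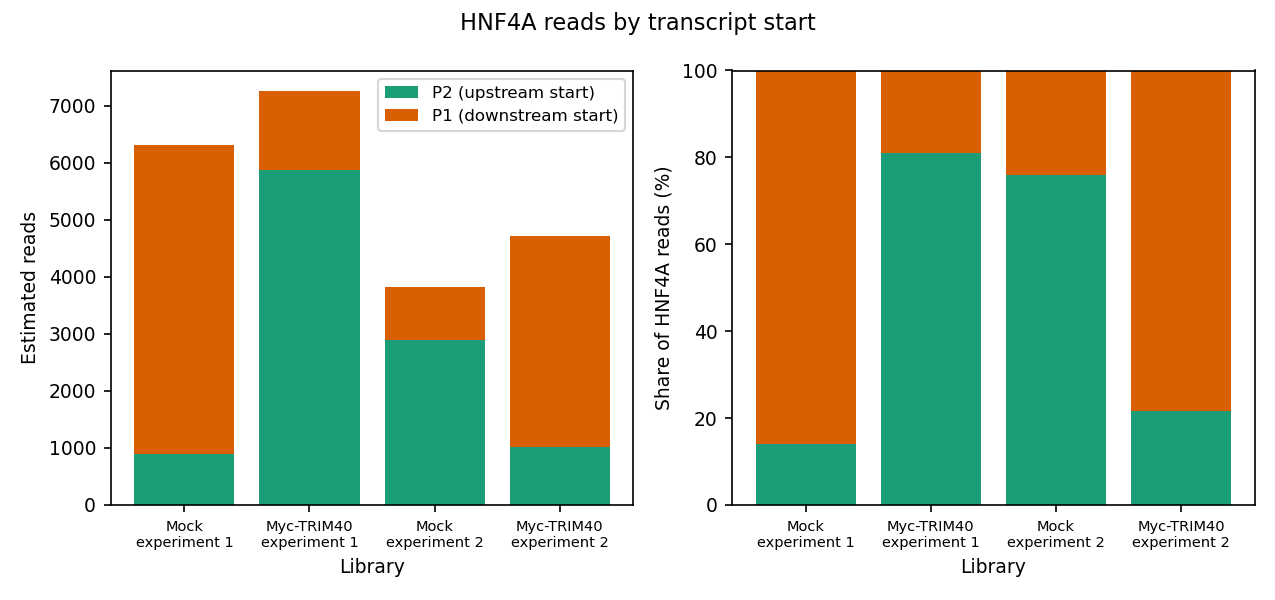
HNF4A estimated reads (left) and share of reads in percent (right) in each library, with the P2 start in green and the P1 start in orange. P2 holds 14.1%, 80.9%, 75.9% and 21.5% of the reads from left to right, so the majority start differs between experiments within both conditions.

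Inside each class the composition varied less than the balance between the classes. A P2 transcript of 4543 bases held 64.2% to 82.6% of the P2 reads, and a P1 transcript of 4722 bases held 64.0% to 78.7% of the P1 reads. The 3 transcripts with the earlier 3′ end, at 43053276, held 1.20% to 2.87% of HNF4A reads in each library. P1 and P2 transcripts share most later exons, and the authors' software divided the reads of shared exons among them. How far this division moved the shares was not tested. Shares of FPKM in place of reads gave 16.6% and 81.3% of P2 in experiment 1 and 76.2% and 22.3% in experiment 2.

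Switches of this size were uncommon but not particular to HNF4A. For 1970 genes with at least 2 transcript starts and 1000 reads in each library, the change in share of 1 start was taken. This was the start with the largest smaller change of the 2 experiments. By this measure, 6 genes (0.305%) shifted by at least 50 points in both experiments in opposite directions. They were NBL1, OGFOD1, CCNF, HNF4A, PLEKHA1 and SSX2IP. FKBP5, HLCS and FHL2 (0.152%) did so in the same direction. A wider measure added up the share gained by all starts of a gene that rose. By it the median gene shifted by 3.37 points in experiment 1, 4.03 in experiment 2 and 4.75 between the Mock libraries. On this wider measure 32 genes (1.62%) passed 50 points in experiment 1, 92 (4.67%) in experiment 2 and 89 (4.52%) between the Mock libraries. Each of these shares rests on 1 comparison. They are not directly comparable with those of the single start, which had to pass in both experiments. This threshold was set after the HNF4A values were seen, and the comparison is a description.

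**Figure D4:**
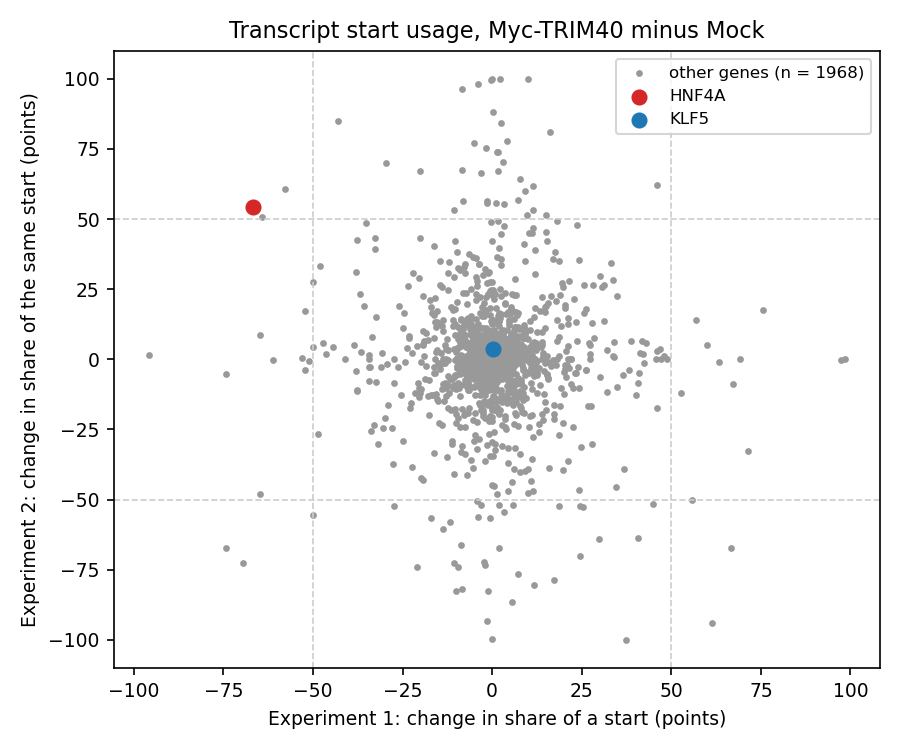
Change in the share of 1 transcript start per gene (Myc-TRIM40 minus Mock, percentage points) in experiment 1 against experiment 2, for 1970 genes. The start shown is that with the largest smaller change of the 2 experiments, and dashed lines mark 50 points. HNF4A, plotted for its P1 start, lies at −66.9 and 54.4, outside the cloud around 0 in which KLF5 sits.

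KLF5 was the other factor with alternative starts. Its upstream-start transcript had 1019 reads in Mock and 1066 in Myc-TRIM40 in experiment 1, and 1088 and 2223 in experiment 2. The share was 3.33% and 3.47% in experiment 1, and 4.02% and 7.58% in experiment 2. The last library was high, by 2.02-fold in normalized reads over its Mock, and the other 3 were close together. CDX1, CDX2, GATA6, ATOH1 and HES1 have 1 transcript each in these files.

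Other transcription factors of the gut, a list of 26 genes, gave no calls by edgeR or DESeq2 among the 21 tested. The median log2 difference was 0.08, beside 0.04 over all genes, and was −0.051 in experiment 1 alone. KLF4, which acts in goblet cell differentiation, had 884 and 2069 reads in experiment 1 and 861 and 1120 in experiment 2 for Mock and Myc-TRIM40. Its log2 difference was 0.78 (SE 0.26, adjusted p = 0.888 by edgeR). ASCL2, a stem cell factor, had 390 and 312 reads, then 835 and 478, for −0.59. KLF4 was higher and ASCL2 lower in both experiments, and these were the 2 genes of the list with an unadjusted p under 0.05. HNF4G, the paralogue of HNF4A, had 2145 and 2429 reads, then 2459 and 3126. PRDM1, a repressor of the fetal-to-adult transition, had 103 and 174, then 46 and 79. GATA4, NEUROD1 and CREB3L3 had 0 reads.

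The Notch pathway, upstream of HES1, had 20 of 21 genes tested and none called. None had an unadjusted p under 0.05, and the median log2 difference was 0.15. In experiment 1 alone this median was −0.0024 and in experiment 2 alone 0.23. The ligand JAG1 had 1968 and 2583 reads in experiment 1 and 1566 and 2310 in experiment 2, for 0.45. The glycosyltransferase LFNG, which modifies Notch receptors, had 5933 and 4719, then 4482 and 3647, for −0.34. ADAM17, which takes part in receptor cleavage, had 0.12 and overlaps the gene IAH1.

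Enterocyte genes, many of them targets of HNF4A and CDX2, had 11 of 21 genes tested and none called. Their median log2 difference was 0.40, with 0.60 in experiment 1 alone, 0.26 in experiment 2 alone and 0.13 with limma on log2(FPKM + 1). On FPKM + 1, 7 of the 11 were higher with TRIM40 in both experiments, as were 37.3% of all tested genes. The microvillar protocadherin CDHR5 had 1310 and 2886 reads, then 1000 and 1256, for 0.71. The membrane mucin MUC13 had 7735 and 14216, then 8215 and 10993, for 0.62. The ferroxidase HEPH had 988 and 1543, then 684 and 1054, for 0.61. These 3 had an unadjusted p under 0.05, with an adjusted p of 0.888 by edgeR, and DPP4, a brush border peptidase, had 0.46. APOB, APOA4 and SLC26A3 had 0 reads.

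Secretory genes, whose programme ATOH1 starts, had 7 of 12 tested and none called, with a median of 0.05. This median was 0.23 in experiment 1 alone, −0.076 in experiment 2 alone and 0.21 without the filter on low counts. The goblet mucin MUC2 had 2098 and 2187 reads in experiment 1 and 206 and 545 in experiment 2. FCGBP, a mucus protein, had 979 and 1254, then 147 and 372, for 0.80 and an unadjusted p of 0.021, the 1 such gene of the list. Both had their fewest reads in the Mock library of experiment 2, as ATOH1 did, while AGR2 (36110 reads), TFF3 (370) and SPINK4 (47) had their most there. Those are reads not scaled to library size. In TPM, AGR2 was still highest there. TFF3 was highest in the Myc-TRIM40 library of experiment 1 (11.6, against 9.15 in Mock of experiment 2). SPINK4 was highest in the Myc-TRIM40 library of experiment 2 (3.72, against 3.04 in its Mock). AGR2, TFF3 and SPINK4 were chosen after their values were seen. REG4 had a difference of 0.05 and BCAS1 of 0.39. Gastric genes had 3 of 7 tested, none called, and a median of −0.06, which was 0.22 in experiment 1 alone and −0.35 in experiment 2 alone. MUC5AC, a gastric mucin that HT-29 cells make, had 12571 and 13741 reads, then 4455 and 5803, for 0.23.

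**Figure D5:**
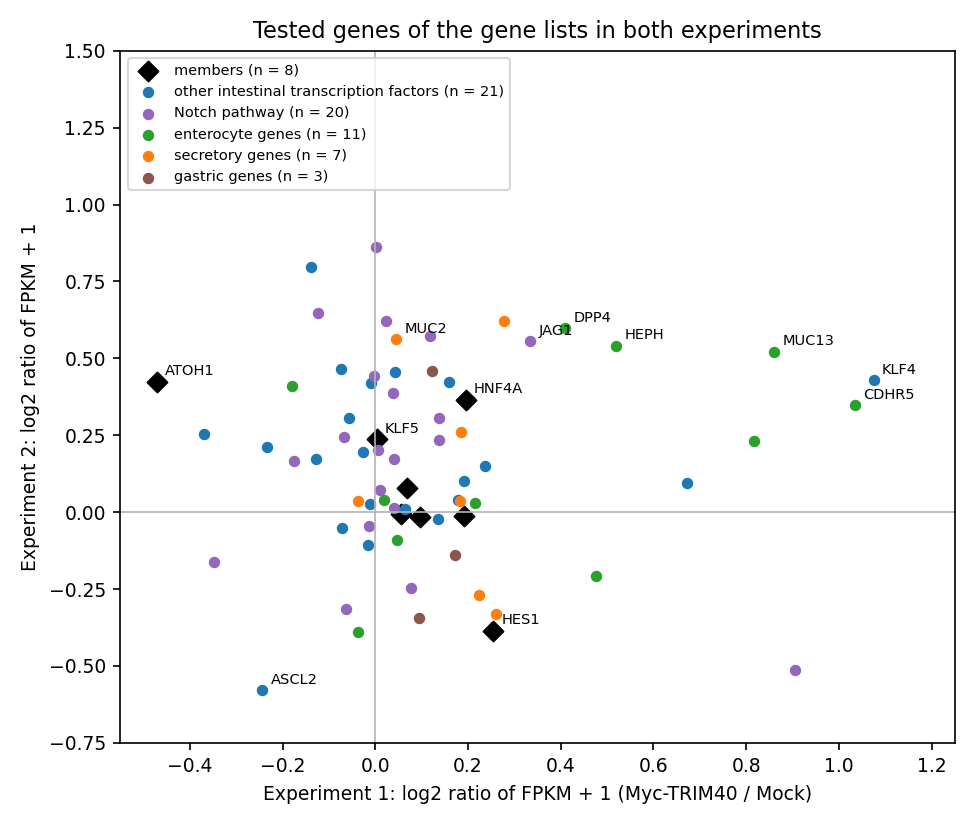
Log2 ratio of FPKM + 1 (Myc-TRIM40 over Mock) in experiment 1 against experiment 2 for the tested genes of each list, with the 8 factors as black diamonds. CDHR5, MUC13, HEPH, DPP4 and KLF4 lie in the upper right, HES1 and ATOH1 in opposite corners, and no gene shown passed the adjusted threshold.

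Each factor was finally set beside the candidate gene whose profile over the 4 libraries was nearest to its own, by root mean square difference of centred log2 CPM. Candidates were the 7532 or 7533 tested genes with a mean log2 CPM of at least 3 and no overlap in position with another gene. CDX1, CDX2 and ATOH1 themselves lay below this level. The nearest were PLEKHM2 for HNF4A (0.0098), REPS1 for KLF5 (0.0085), SLC9A3R1 for GATA6 (0.011) and LMNA for ELF3 (0.018). For HES1 it was C9orf40 (0.0064), for CDX2 PSMD5-AS1 (0.015) and for CDX1 ERICH1 (0.019). With 4 libraries, 136 to 691 of these candidates lay within 0.1 of each of these 7 factors. ATOH1 had PRKDC (0.092) as the 1 candidate within that distance. Its log2 CPM had a range of 1.47 over the 4 libraries, against a median of 0.72 over all tested genes.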

How the data were processed

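RNA was measured in 4 libraries of HT-29 cells. For every RefSeq transcript the authors gave an estimated count, in whole numbers and without normalization. The authors also deposited FPKM (scaled by length and library) and, for experiment 2, TPM. For experiment 1, TPM was computed from FPKM. The submitters' processing notes name hg19, HISAT2 2.1.0 and StringTie 1.3.4d, without stating the role of either tool. Libraries were TruSeq stranded mRNA. The other deposited values were transcript lengths.

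The 63714 transcripts were summed to 27685 genes. Summed counts were tested with edgeR 4.0.16 (glmQLFit, TMM, filterByExpr, 14868 genes), with the experiment as a block, and p-values were adjusted by Benjamini-Hochberg over all genes. Each deposited table holds 1 experiment, and deviations of same-numbered libraries correlated at 0.449. The fit had 1 residual degree of freedom, so spread was shared across genes. Scripts were tested on simulated data. DESeq2 1.42.0 and limma 3.58.1 were alternatives. Labels do not say whether libraries came from separate cultures beyond the 2 experiments, so p-values measure the spread between these libraries. The 95% counting and binomial intervals cover counting error only, while the 95% edgeR intervals include the spread between libraries. The binomial intervals also leave out how reads of shared exons were divided between starts. The floor of 3 reads is a fixed cutoff. Depth is the library total.

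Named genes were all 8 factors and the candidate gene nearest to each. From each list they were called genes plus the 4 tested genes with the largest smaller change in the same direction in both experiments. Factors and lists were chosen with earlier results of these data known. Some genes of the lists are not reported here. Microarrays and tissue samples were not analysed here.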

Additional observations from a re-analysis of the deposited data

How the results depend on the processing

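No factor was called under any of the 6 other fits, in which the lowest adjusted p of the 8 was 0.804 and 5 of 48 log2 differences changed sign. These were CDX2 (0.025) and GATA6 (0.074) with limma on log2(FPKM + 1), and ELF3 with DESeq2 (−0.017), upper-quartile normalization (−0.0017) and median centring (−0.0048). Over all genes, 6 higher and 3 lower became 0 and 0 without the replicate block, 45 and 9 with DESeq2, 3 and 0 with limma, and 0 and 0 without a filter on low counts; the cause was not tested. The replicate block changed no other call. The enterocyte median of 0.40 was 0.13 with limma, and the gastric median was 0.017 with limma and 0.081 without a filter.

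Leaving out 1 experiment leaves the values of the other, with no test. Log2 differences then ranged from −0.15 to 0.32 for CDX1, −0.13 to 0.064 for CDX2, −0.033 to 0.10 for KLF5, −0.041 to 0.039 for GATA6 and −0.14 to 0.16 for ELF3. They ranged from −0.68 to 0.59 for ATOH1, −0.52 to 0.23 for HES1, −2.01 to 1.99 for HNF4A P1 and −1.53 to 2.69 for HNF4A P2 transcripts, and from 0.16 to 0.29 for HNF4A in total. The median of the other transcription factors ranged from −0.051 to 0.092, of Notch genes from −0.0024 to 0.23, of enterocyte genes from 0.26 to 0.60, of secretory genes from −0.076 to 0.23 and of gastric genes from −0.35 to 0.22. Without the replicate block the class differences were −0.38 for P1 and 0.87 for P2, with adjusted p = 1.00 by edgeR. With a threshold of 25 points, chosen after seeing the data, 24 genes switched starts in opposite directions and 17 in the same direction. Sequencing depth limits CDX1 most, at 36 to 46 reads a library.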
